A study of Gallus gallus with 6 samples.

Results

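Myosin II, the motor that pulls on actin filaments in muscle contraction, cell movement and cell division, is built from heavy chains that carry the motor and the rod and from light chains that clasp the neck of each heavy chain. Essential light chains stiffen the neck, and regulatory light chains are the site where kinases and phosphatases set motor activity. Striated muscle, smooth muscle and non-muscle cells each use their own heavy and light chains, and a myoblast that leaves the cell cycle and fuses adds the striated chains to the non-muscle ones it already has.

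The genes described here are the 24 of 24433 rows of the expression table whose symbol begins with MYH or MYL followed directly by a digit, together with MYLPF. They comprise 14 heavy chain and 10 light chain genes, and the table's own descriptions name all 24 as myosin chains. A mean of at least 1 FPKM (fragments divided by gene length and by library total) over the 6 libraries was reached by 14 of them, 5 heavy and 9 light chains, and these entered the test. MYH11, at a mean of 1.57 FPKM, lay just inside that limit and MYH1B, at 0.729 FPKM, just outside it.

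The libraries came from polyadenylated RNA of chicken primary myoblasts from leg muscle, 3 overexpressing ANKRD9, which encodes an ankyrin repeat protein of ubiquitin ligase complexes, and 3 carrying the empty expression vector pcDNA3.1 as the control. The labels state neither the culture stage, the time after delivery of the constructs nor the age of the birds. They also do not say that replicates are separate cultures, and every p-value below therefore measures the spread between these libraries alone, which may be technical. The deposited values correspond to between 16158627 and 26310089 whole reads per library. ANKRD9 stood at 90.5, 104 and 101 FPKM in the libraries labelled as overexpressing and at 9.46, 8.16 and 10.1 FPKM in the controls. Of 8 myoblast markers, 6 had a mean of at least 1 FPKM, while PAX3 lay under it and CHODL was listed at 0 in every library. Of 15 listed markers of differentiated skeletal muscle, 11 were in the table, and all of these had a mean of at least 1 FPKM. MYMK, CKM, ATP2A1 and RYR1 had no row under those symbols, so their levels are not known. The cultures thus held transcripts of both stages. These are bulk samples, in which fewer cells of a type and less RNA per cell cannot be told apart.

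The myosin transcripts of these cultures were mostly those of the smooth and non-muscle chains. The 7 genes of that kind made up 90.7% ± 0.375 of the summed myosin FPKM with ANKRD9 and 91.4% ± 0.966 with the vector (SD, n = 3 each), and the 17 striated genes the remainder. The essential light chain gene MYL6 alone held 61.2% ± 0.503 and 57.9% ± 2.59 of the sum. Over all 6 libraries MYL6 stood highest, at a mean of 1777 FPKM, followed by MYL12A at 451, MYH9 at 229 and MYL9 at 179 FPKM. MYH15, MYL10 and MYL1 came next at means of 76.6, 76.6 and 75.2 FPKM, and these neighbours did not differ beyond the spread of their libraries. MYL12B followed at 40.9, MYH10 at 35.2, MYLPF at 13.7, MYL3 at 12.2, MYH1D at 6.91, MYL4 at 3.95 and MYH11 at 1.57 FPKM. MYLPF and MYL3 also overlapped in their values within both groups. MYL12B and MYH10 overlapped in the controls, whereas every ANKRD9 library had less MYH10 than MYL12B, and the other 10 genes had means of 0.729 FPKM or less.

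**Figure D1:**
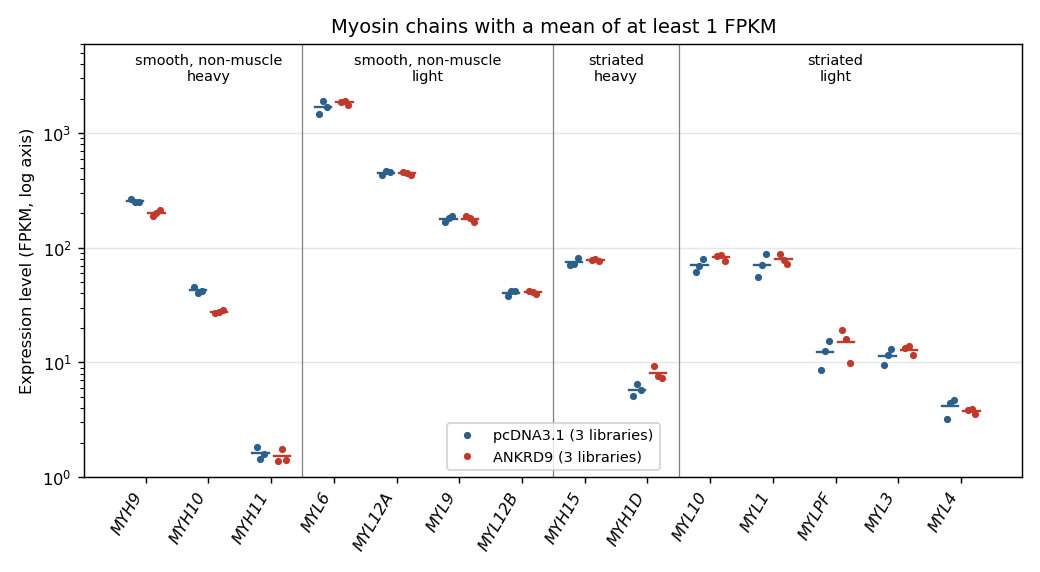
Expression level in FPKM (log axis) of the 14 myosin genes that reached a mean of 1 FPKM; each point is a library, each bar the mean of 3 libraries, blue for pcDNA3.1 and red for ANKRD9. MYL6 stood highest at a mean of 1777 FPKM, and the groups lay apart for MYH9, MYH10 and MYH1D.

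Between the groups, 3 heavy chain genes changed, and no light chain gene passed the test. MYH9 and MYH10, the non-muscle heavy chains, fell with ANKRD9, and MYH1D, a skeletal heavy chain, rose. In the test used (limma on log2 of FPKM + 1, Benjamini-Hochberg adjustment over all 11685 genes tested, threshold 0.05) 3 of the 14 myosin genes were called, where 36% of all genes tested were. Of these, 1 was higher, where 16.3% of all genes were, and 2 were lower, where 19.8% were. The values of the groups did not overlap for 3 of 14, against 50.6% of all genes tested. The median log2 fold change of the 14 was 0.04, beside -0.01 over all genes. Myosin genes were therefore called no more often than genes at large, and the changes below are those of single genes.

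MYH9 encodes non-muscle myosin heavy chain IIA, which drives cortical tension and stress fibres (gene 396469, chromosome 1: 51734199-51820934, plus strand, GRCg6a). Its level was 190, 202 and 212 FPKM in the ANKRD9 libraries and 269, 249 and 253 FPKM in the control libraries. Every ANKRD9 library lay under every control library. The means were 201 ± 11.2 and 257 ± 10.7 FPKM (SD, n = 3 each), a 1.28-fold difference, with -0.35 ± 0.05 as the log2 fold change (SE) and an adjusted p of 0.00273 (limma). With 29392 to 50514 reads per library, MYH9 was the most deeply covered myosin gene. It shares 541 of the 86736 bases of its span with TXN2 on the same strand.

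MYH10 encodes heavy chain IIB, the form prominent in cytokinesis and in slow, sustained tension (gene 396465, chromosome 18: 1725821-1818952, minus strand). It stood at 27.2, 27.5 and 28.7 FPKM with ANKRD9 and at 45.6, 40.3 and 41.8 FPKM with the vector. The gap between the groups was wider than the range within either. The means of 27.8 ± 0.779 and 42.6 ± 2.71 FPKM (SD, n = 3 each) differed 1.53-fold, with a log2 fold change of -0.60 ± 0.05 (SE; limma, adjusted p = 3.02e-04). A larger log2 change in either direction was found for 3.62% of the genes tested, and for MYH9 the share was 14.1%. No other gene of the table overlaps MYH10.

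The balance of these heavy chains also differed. The ratio of MYH9 to MYH10 in FPKM was 6.96, 7.36 and 7.38 with ANKRD9 and 5.90, 6.16 and 6.04 with the vector. All 3 ANKRD9 libraries thus had proportionally less MYH10, although both genes were at lower levels. The 95% intervals of the log2 fold changes, -0.72 to -0.47 for MYH10 and -0.47 to -0.22 for MYH9, meet at their ends. The difference between them was not tested.

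Most tested markers of fibroblasts, cells that also carry non-muscle myosin, were lower with ANKRD9. Of 9 tested, 7 were lower and 1 higher with ANKRD9, beside 19.8% and 16.3% of all genes tested, and the summed level of the 10 listed genes ranged from 1746 to 1886 FPKM in the ANKRD9 libraries and from 2163 to 2215 FPKM in the controls. None of the 10 was at 0, and TCF21 alone had a mean under 1 FPKM. Leukocytes also carry MYH9. Of their 10 markers, all above 0, 9 were tested, of which 4 were higher and none lower, beside the same shares of all genes, and their sum ranged from 186 to 189 FPKM with ANKRD9 and from 152 to 164 FPKM with the vector. Myoblasts carry the non-muscle chains too. Of their 6 tested markers, 2 were higher (MYF5 and DES) and 3 lower (MYOD1, MSC and PAX7), beside the same shares of all genes. The sum of the 8 listed ranged from 827 to 915 FPKM with ANKRD9 and from 830 to 885 FPKM with the vector. The part of any of these cell types in the fall of MYH9 and MYH10 was not tested.

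None of the 4 light chain genes that serve these heavy chains was called, where 36% of all genes tested were. MYL12A, a regulatory light chain gene of non-muscle cells (gene 396284, chromosome 2: 100882700-100889877), stood at 462, 448 and 432 FPKM with ANKRD9 and at 429, 471 and 462 FPKM with the vector. MYL12B (gene 770011), which lies 10312 bases away on the same strand and encodes a closely similar chain, stood at 42.1, 41.5 and 39.9 FPKM and at 38.3, 41.7 and 42.0 FPKM. The groups overlapped for both, and the ratio of MYL12A to MYL12B kept between 10.8 and 11.3 in all 6 libraries. How reads shared by such similar genes were assigned is not stated in the labels, so this ratio is uncertain. A lncRNA on the opposite strand spans all of MYL12B, at a mean of 3.35 FPKM.

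MYL9, the regulatory light chain gene of smooth muscle that non-muscle cells also use (gene 396215, chromosome 20: 485849-492638), stood at 188, 181 and 168 FPKM with ANKRD9 and 166, 183 and 189 FPKM with the vector. The ranges of the groups nearly coincided. The 95% interval of its log2 fold change was -0.15 to 0.14, that of MYL12A -0.14 to 0.10 and that of MYL12B -0.09 to 0.13 (limma, adjusted p between 0.783 and 0.976). A fall of the size seen for MYH9 or MYH10 lies outside each of these intervals.

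MYL6 encodes the essential light chain of non-muscle and smooth muscle myosin (gene 100996929). It stood at 1885, 1919 and 1777 FPKM with ANKRD9 and at 1473, 1914 and 1697 FPKM with the vector, on 18723 to 32050 reads. Control library 1 was low and control library 2 as high as the ANKRD9 libraries. The log2 fold change of 0.14 had a 95% interval of -0.08 to 0.36 and an adjusted p of 0.276 (limma), and its sign turned under quantile normalization, to -0.073. The summed FPKM of the heavy chain genes MYH9, MYH10 and MYH11 divided by that of MYL9, MYL12A and MYL12B was 0.315, 0.346 and 0.378 with ANKRD9 and 0.499, 0.417 and 0.427 with the vector, so the groups did not overlap on this ratio.

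MYH11, the heavy chain gene that marks mature smooth muscle (gene 396211, chromosome 14: 7970090-8026667), was close to the limit of the test. Its levels of 1.38, 1.76 and 1.40 FPKM with ANKRD9 and 1.83, 1.44 and 1.59 FPKM with the vector overlapped, on 182 to 246 reads, and 2 lncRNA genes lie on its opposite strand. The log2 fold change had a 95% interval of -0.28 to 0.16 (limma, adjusted p = 0.640). Of 10 tested smooth muscle markers, 2 were higher and 4 lower, beside 16.3% and 19.8% of all genes tested. DES, among those higher, is also on the myoblast list. The sum of all 12 ranged from 474 to 493 FPKM with ANKRD9 and from 451 to 493 FPKM with the vector.

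**Figure D2:**
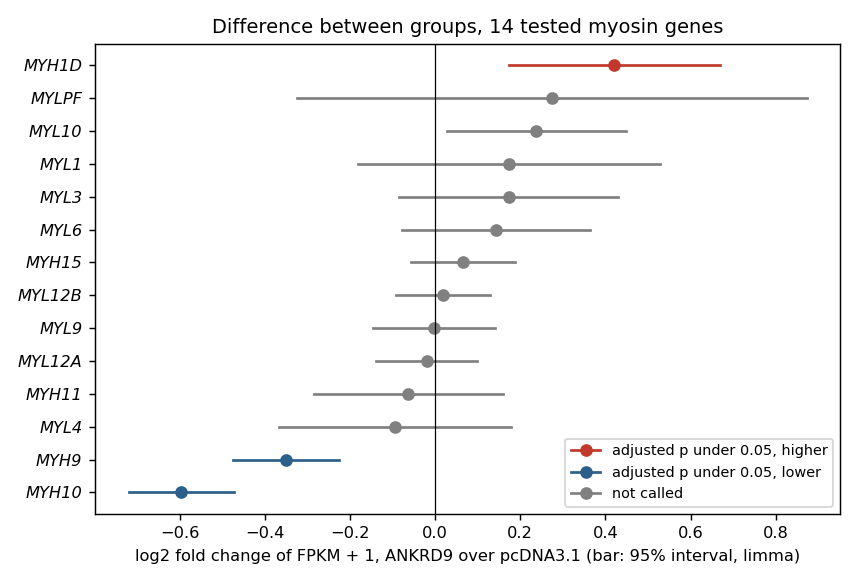
Log2 fold change of FPKM + 1, ANKRD9 over pcDNA3.1, for the 14 myosin genes tested; points are the limma estimates from 3 libraries a group and bars their 95% intervals. MYH10 and MYH9 lay at -0.60 and -0.35 and MYH1D at 0.42; the other 11 genes, in grey, were not called.

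Among the striated chains, MYH1D was the only one called, and it was higher with ANKRD9. It is a heavy chain gene of skeletal muscle (gene 417306, chromosome 18: 376311-399093, minus strand). Its levels were 9.33, 7.61 and 7.25 FPKM with ANKRD9 and 5.08, 6.51 and 5.71 FPKM with the vector. The groups did not overlap, though the lowest ANKRD9 library and the highest control library lay close together. The means of 8.06 ± 1.11 and 5.76 ± 0.718 FPKM (SD, n = 3 each) differed 1.40-fold, with a log2 fold change of 0.42 ± 0.11 (SE; limma, adjusted p = 0.0190), on 614 to 1509 reads. This call was lost without pcDNA3.1 replicate 3 (adjusted p = 0.0543) and when no filter on low values was used (adjusted p = 0.0574), with log2 fold changes of 0.42 in both.

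MYH1D belongs to a cluster of 8 skeletal heavy chain genes on the minus strand of chromosome 18, between 317760 and 670219 on GRCg6a, a span of 352460 bases with no other protein-coding gene of the table in it. In the order of their coordinates these are MYH13, MYH1D, MYH1F, MYH1A, MYH1B, MYH1E, MYH1C and MYH1G. MYH1D held 76.3% of the summed mean FPKM of the cluster. Its neighbours MYH13, 16071 bases away, and MYH1F, 8180 bases away, had means of 0.251 and 0.123 FPKM. The next highest genes were MYH1B and MYH1E, at 0.729 and 0.616 FPKM, and MYH1C was lowest at 0.0756 FPKM. The genes are similar copies, so how shared reads were assigned could change the division among them.

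**Figure D3:**
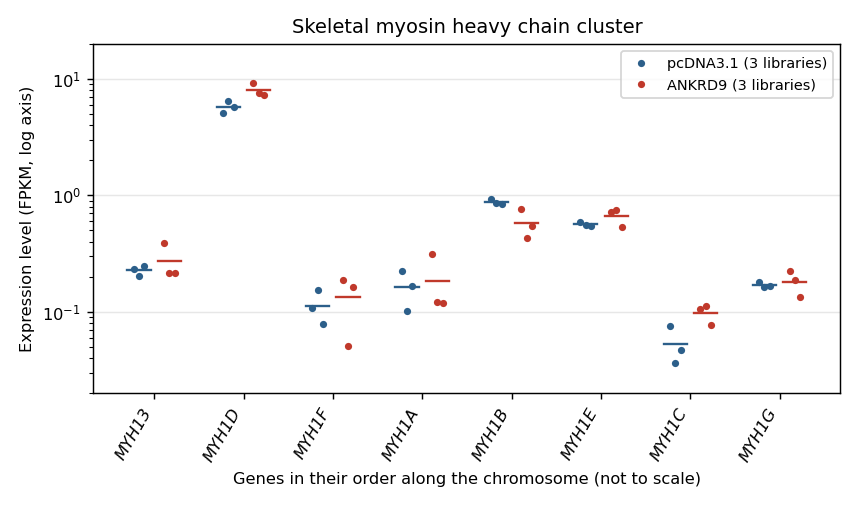
Expression level in FPKM (log axis) of the 8 genes of the skeletal heavy chain cluster, in their order along chromosome 18 and not to scale; points are libraries and bars means of 3, blue for pcDNA3.1 and red for ANKRD9. MYH1D, at a mean of 6.91 FPKM, stood above the other 7, of which MYH1B was highest at 0.729 FPKM.

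MYH15, a heavy chain of the slow and cardiac branch that in chicken is known from the heart ventricle, was the most abundant striated heavy chain transcript (gene 395534, chromosome 1: 88760859-88807429, minus strand). It stood at 78.1, 79.4 and 77.3 FPKM with ANKRD9 and at 71.3, 72.5 and 80.8 FPKM with the vector. The highest library was a control, and the groups overlapped. The log2 fold change of 0.06 had a 95% interval of -0.06 to 0.19 (limma, adjusted p = 0.368). HHLA2 on the opposite strand covers 15012 of the 46571 bases of the span of MYH15, at a mean of 73.6 FPKM. The strand setting of the counting is not given, so whether reads of the 2 genes were told apart is not known. HHLA2 itself was lower with ANKRD9, at 68.0 ± 0.960 against 79.2 ± 1.34 FPKM (SD, n = 3 each; limma, adjusted p = 0.00323). The ratio of MYH15 to MYH1D was 8.37, 10.4 and 10.7 with ANKRD9 and 14.1, 11.1 and 14.2 with the vector.

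Of 9 cardiac markers in the table, 5 were tested, of which 3 were higher with ANKRD9, beside 16.3% of all genes tested. NKX2-5, TBX5 and GATA4, transcription factor genes of heart muscle, had means under 1 FPKM, and so did RYR2. None was at 0. HAND2, another transcription factor gene on the list, was not called, its group means being 34.3 (ANKRD9) and 35.3 FPKM (vector). MYBPC3 was not called either, its means being 11.7 and 11.1 FPKM in that order. NPPA and NPPC were among the genes called higher (limma, adjusted p = 0.0179 and 0.0161). NPPA went from 3.14 ± 0.271 up to 5.27 ± 1.37 FPKM, and NPPC from 1.33 ± 0.0283 up to 2.01 ± 0.295 FPKM (SD, n = 3 each). The summed level of the 9 ranged from 372 to 418 FPKM with ANKRD9 and from 283 to 342 FPKM with the vector. Most of that sum was TNNT2, a troponin gene that embryonic skeletal muscle also uses, at 342 ± 23.0 FPKM with ANKRD9 and 268 ± 28.7 FPKM in the controls (SD, n = 3 each). The part of these markers in the level of MYH15 was not tested.

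The striated essential light chains were MYL1, of fast fibres, MYL3, of slow fibres and ventricle, and MYL4, of embryonic muscle and atrium. MYL1 (gene 396470, chromosome 7: 2795400-2813126) stood at 87.5, 77.9 and 72.1 FPKM with ANKRD9 and at 55.5, 70.2 and 87.7 FPKM with the vector. The control libraries alone spanned the whole range of both groups, 1.58-fold from lowest to highest. A coefficient of variation above that of MYL1 in the controls, 22.6%, was found for 4.72% of all genes tested. The log2 fold change of 0.17 had a 95% interval of -0.18 to 0.53 (limma, adjusted p = 0.407). It was 0.0086 without pcDNA3.1 replicate 1 and 0.33 without pcDNA3.1 replicate 3 (adjusted p = 0.961 and 0.0776).

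MYL3 (gene 396067, chromosome 2: 3512669-3547290) stood at 13.4, 13.8 and 11.6 FPKM with ANKRD9 and 9.52, 11.6 and 13.1 FPKM with the vector. MYL4 (gene 396472, chromosome 27: 5250969-5256163) stood at 3.87, 3.91 and 3.52 FPKM and at 3.20, 4.46 and 4.73 FPKM. The groups overlapped for both. The 95% intervals of the log2 fold changes were -0.09 to 0.43 for MYL3 and -0.37 to 0.18 for MYL4 (limma, adjusted p = 0.259 and 0.558). MYL4 was called lower only in the fit without pcDNA3.1 replicate 1, at a log2 fold change of -0.23 (adjusted p = 0.0404).

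Of the striated regulatory light chains, MYL10 had the highest FPKM (gene 417506, chromosome 19: 3899866-3931151). It stood at 85.4, 85.7 and 77.3 FPKM with ANKRD9 and at 61.9, 69.3 and 79.9 FPKM with the vector. Control library 3 lay above ANKRD9 library 3, and the other libraries were in the order of the groups. The means were 82.8 ± 4.80 and 70.4 ± 9.04 FPKM (SD, n = 3 each), and the log2 fold change of 0.24 ± 0.09 (SE) did not pass (limma, adjusted p = 0.0761). It passed without pcDNA3.1 replicate 3 (log2 fold change 0.33, adjusted p = 0.0184) and with quantile normalization (adjusted p = 0.0408).

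MYLPF, the regulatory light chain gene of fast fibres (gene 776775, chromosome 26: 5535685-5546109), stood at 19.4, 16.1 and 9.95 FPKM with ANKRD9 and 8.63, 12.7 and 15.3 FPKM with the vector. The groups overlapped over most of their range. The table gives this gene a length of 331 bases, and its values rest on 57 to 171 reads, the fewest of the 14 genes tested. The 95% interval of its log2 fold change, -0.32 to 0.87, is the widest of the 14 (limma, adjusted p = 0.434), and it holds the value seen for MYH1D. Leaving out 1 library at a time gave 0.06 to 0.53. LOC107050692 overlaps MYLPF on the same strand, over 2382 of the 10425 bases of its span. How reads shared by them were assigned is not stated, so the rank of MYLPF under MYL10 is uncertain.

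The striated chains shared their lowest library within each group, but not their highest. All 7 that were tested had their lowest control value in pcDNA3.1 replicate 1 and their lowest ANKRD9 value in ANKRD9 replicate 3. The same held for all 9 light chains tested, those of smooth and non-muscle cells included. Over all genes tested, the lowest control value lay in pcDNA3.1 replicate 1 for 37.1%, and the lowest ANKRD9 value in ANKRD9 replicate 3 for 33.8%. MYH9, MYH10 and MYH11 did the opposite in that their highest control value was in pcDNA3.1 replicate 1.

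Markers of differentiated skeletal muscle were mostly lowest in the same libraries. Of the 11 tested, 10 were lowest in pcDNA3.1 replicate 1 among the controls and 9 in ANKRD9 replicate 3 among the ANKRD9 libraries. Their summed level was 942, 880 and 808 FPKM with ANKRD9 and 629, 726 and 809 FPKM with the vector. With ANKRD9 2 of the 11 were higher and none lower, beside 16.3% and 19.8% of all genes tested. The other 9 did not pass, and the median log2 fold change was 0.24. The 7 striated myosin genes had a median of 0.17, with 1 higher and none lower, beside the same shares of all genes. The part of this marker list in the striated chain values was not tested. Leaving out both pcDNA3.1 replicate 1 and ANKRD9 replicate 3 kept 2 libraries in each group, a comparison chosen after seeing the data. The libraries left out held the lowest value of MYH1D and the highest of MYH9 and MYH10 in each group. The comparison is therefore no independent support for the calls. In it MYH1D was called (log2 fold change 0.41, adjusted p = 0.0400), as were MYH9 at -0.35 and MYH10 at -0.57 (adjusted p = 0.00681 and 0.00259, limma). The summed marker level still lay apart in the libraries kept, at 942 and 880 FPKM with ANKRD9 and 726 and 809 FPKM with the vector. Whether these calls depend on the marker levels was not tested.

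**Figure D4:**
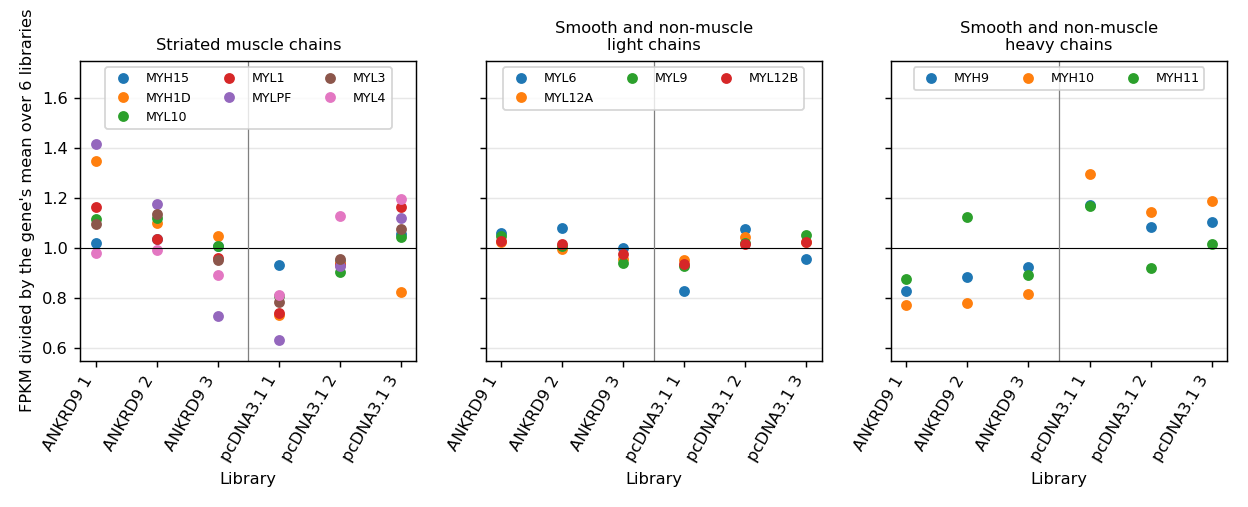
FPKM of each tested myosin gene divided by its mean over the 6 libraries, for the 3 ANKRD9 and 3 pcDNA3.1 libraries; each point is a gene in a library, and the panels hold 7 striated chains, 4 smooth and non-muscle light chains and 3 smooth and non-muscle heavy chains. All 11 genes of the first 2 panels are lowest among the controls in pcDNA3.1 1 and lowest among the ANKRD9 libraries in ANKRD9 3.

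The 10 genes under a mean of 1 FPKM were 9 heavy chains and the regulatory light chain gene MYL2, known from slow and cardiac muscle. They rested on 1 to 125 reads in a library. For 4 of them the groups did not overlap, beside 21.9% of all genes under 1 FPKM with a mean of at least 3 reads. MYH1B, a skeletal heavy chain of the cluster, stood at 0.770, 0.433 and 0.542 FPKM with ANKRD9 and 0.923, 0.856 and 0.850 FPKM with the vector. MYH7B, a slow heavy chain gene that hosts MIR499A, stood at 0.107, 0.0722 and 0.0954 FPKM and at 0.144, 0.155 and 0.216 FPKM. Both were thus lower in every ANKRD9 library.

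MYH1C of the cluster stood at 0.106, 0.112 and 0.0770 FPKM with ANKRD9 and 0.0750, 0.0364 and 0.0473 FPKM with the vector. MYL2 had 4, 4 and 6 reads with ANKRD9 and 1, 2 and 2 with the vector. Both were higher in every ANKRD9 library, on few reads. In a fit without a filter, on 20743 genes of which 17% were called, MYL2 was the only one of the 10 called (log2 fold change 0.26, adjusted p = 0.0443), and the adjusted p of MYH7B was 0.0762, of MYH1B 0.0984 and of MYH1C 0.141 (limma). The other 6 genes, MYH1E, MYH13, MYH1G, MYH1A, MYH1F and MYH7, overlapped between the groups, with means from 0.616 FPKM for MYH1E down to 0.0548 FPKM for MYH7, the beta cardiac and slow heavy chain.

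Genes of the enzymes that act on the regulatory light chain were called in both directions. Of 25 genes of kinases, phosphatases and their regulators in the table, 22 were tested, of which 6 were higher, 7 lower and 9 not called, with a median log2 fold change of 0.03. Of all genes tested, 16.3% were higher and 19.8% lower, and the counts of this and the following lists stand beside those shares. RHOC, a small GTPase of the actin cytoskeleton, rose from 142 ± 8.58 to 205 ± 1.46 FPKM (SD, n = 3 each), or by 0.53 ± 0.05 on the log2 scale (SE; limma, adjusted p = 3.54e-04). DAPK1, a kinase that can phosphorylate regulatory light chains, rose from 8.45 ± 0.0813 to 10.4 ± 0.326 FPKM (adjusted p = 0.00355). STK17B, a kinase of the same family, fell from 38.5 ± 2.10 to 27.1 ± 0.633 FPKM (adjusted p = 4.76e-04). PPP1CB, the catalytic subunit of myosin phosphatase, fell from 141 ± 3.04 to 110.2 ± 5.67 FPKM (adjusted p = 0.00161). The dedicated light chain kinase gene MYLK had a mean of 0.958 FPKM and was not tested, with 0.985 ± 0.115 FPKM in the ANKRD9 libraries and 0.931 ± 0.0799 FPKM in the controls.

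Among genes that fold myosin or bind the thick filament, 15 were tested, of which 5 were higher, 2 lower and 8 not called, with a median log2 fold change of 0.18. UNC45B, the muscle chaperone of the myosin head, rose from 11.1 ± 0.803 to 13.8 ± 1.15 FPKM (SD, n = 3 each; log2 fold change 0.30 ± 0.07 SE, limma, adjusted p = 0.0161). Its partners were lower, HSP90AA1 falling from 475 ± 7.09 to 349.8 ± 10.2 FPKM (adjusted p = 3.49e-04) and HSP90AB1 from 123 ± 3.62 to 108 ± 0.0490 FPKM (adjusted p = 0.00862). MYOM3, which cross-links thick filaments at the M-band, rose from 21.6 ± 1.19 to 27.2 ± 0.295 FPKM (adjusted p = 0.00244). FBXO32, a ubiquitin ligase gene of muscle protein breakdown, rose from 3.53 ± 0.276 to 4.87 ± 0.432 FPKM (adjusted p = 0.00879).

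Of the 6 actin genes, which encode the filaments on which myosin pulls, 1 was higher, 2 were lower and 3 were not called, with a median log2 fold change of 0.02. The smooth muscle forms ACTA2 and ACTG2 fell, ACTA2 from 125 ± 4.94 to 96.8 ± 4.96 and ACTG2 from 18.2 ± 1.53 to 14.2 ± 0.988 FPKM (SD, n = 3 each; limma, adjusted p = 0.00197 and 0.0104). The cytoplasmic gene ACTG1 rose from 255 ± 11.3 to 282 ± 7.01 FPKM with an adjusted p of 0.0420, a call lost when any single library other than pcDNA3.1 replicate 2 was left out (adjusted p between 0.0740 and 0.134), without a filter (adjusted p = 0.0773) and in an eBayes fit with no trend (adjusted p = 0.0614). The skeletal gene ACTA1, at 46.5 ± 4.60 FPKM in the ANKRD9 libraries and 40.8 ± 5.99 FPKM in the controls, did not pass (adjusted p = 0.213), like ACTC1 and ACTB.

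The unconventional myosins, motors of transport and membranes that form no thick filaments, had 15 of 27 genes tested, with 4 higher, none lower and 11 not called, and a median log2 fold change of 0.09. MYO1E rose from 7.75 ± 0.571 to 11.4 ± 0.298 FPKM (SD, n = 3 each; limma, adjusted p = 8.27e-04) and MYO10L from 31.8 ± 2.59 to 38.7 ± 0.871 FPKM (adjusted p = 0.00977). MYO9A rose by 0.31 on the log2 scale (adjusted p = 0.0150). It lost its call without ANKRD9 replicate 2 or pcDNA3.1 replicate 3 (adjusted p = 0.0523 and 0.0508).

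Of 16 tested transcription factors of muscle genes, 4 were higher, 2 lower and 10 not called, with a median log2 fold change of 0.10. MYOD1, the determination factor of myoblasts, fell from 199 ± 6.77 to 116 ± 11.3 FPKM (SD, n = 3 each; limma, adjusted p = 3.12e-04), whereas MYOG, which marks the onset of differentiation, was measured at 163 ± 10.1 FPKM in the ANKRD9 libraries and 153 ± 11.2 FPKM in the controls (adjusted p = 0.292). PRDM1, MYF6 and MKL1 rose by 0.62, 0.29 and 0.27 on the log2 scale (adjusted p = 0.00139, 0.00260 and 0.00355).

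**Figure D5:**
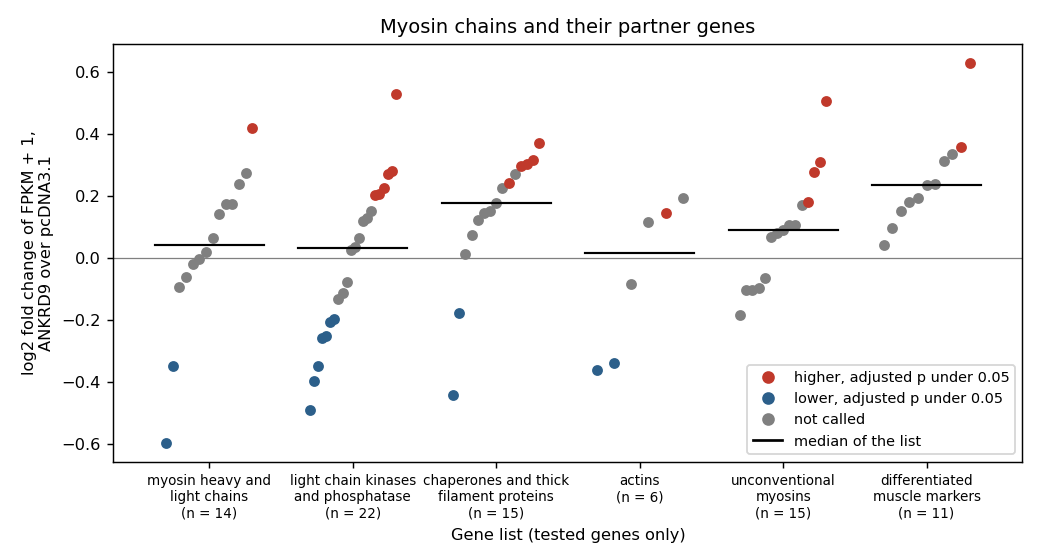
Log2 fold change of FPKM + 1, ANKRD9 over pcDNA3.1, for every tested gene of 6 lists; each point is a gene, red and blue marking genes higher or lower at an adjusted p under 0.05 (limma), and black bars the median of each list. The medians lie between 0.02 for actins and 0.24 for markers of differentiated muscle, with 0.04 for the myosin chains.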

How the data were processed

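The authors deposited FPKM per gene for 6 libraries in a single table, with symbol, position and length, per the file headers. Per the labels' protocols the libraries were made with an NEBNext Ultra kit, and per the submitters' processing notes CASAVA and the build GRCg6a were used. No aligner, counter, strand setting or version is given in the sources used here. Whole reads were recovered from FPKM times gene length, which within each library came in equal steps for 100% of values above 0 (tolerance 0.01).

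Genes whose mean reached 1 FPKM were fitted on log2(FPKM + 1) with limma (version 3.58.1; R version 4.3.3), group as the only term, eBayes with a mean trend and Benjamini-Hochberg adjustment. Fold changes on this scale understate those of low genes; folds in the text are ratios of mean FPKM. The procedure was tested on simulated data in which genes varied independently and all had the same small spread beyond that of read counting. This covers neither genes that vary together between libraries nor genes as variable as MYL1 or MYLPF. Sums, shares and ratios of genes were not tested.

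The members and lists were chosen with earlier results of these data known. All members are named. From each partner list the text names up to 4 called genes of smallest adjusted p, and MYLK, UNC45B, ACTA1, MYOG and MYOD1 whatever their result, except that 1 gene the rule takes is not reported here; HHLA2, ACTC1, ACTB and the markers singled out were named after their values were seen. Chromosome names come from the genes that each sequence of the table shares with RefSeq's table for another assembly, GRCg7b, whose coordinates were not used. For MYL6 these genes fell on several chromosomes and no position is given. Sequences were not used here.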

Additional observations from a re-analysis of the deposited data

How the results depend on the processing

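MYH9 and MYH10 were called lower under all 16 alternatives, with log2 fold changes from -0.39 to -0.28 and from -0.63 to -0.55. The number of myosin genes called higher was 2 with quantile normalization, MYL10 beside MYH1D, and it was 1 without a filter and without pcDNA3.1 replicate 3, but then the gene was MYL2 and MYL10 in place of MYH1D. Leaving out 1 library at a time gave 1 myosin gene higher in each case and 2 to 3 lower, MYL4 being the third, and over all genes 1255 to 1764 higher, lowest without ANKRD9 replicate 2. Signs turned for 5 uncalled genes. With quantile normalization MYL12A, negative as reported, was at 0.024 and MYL6 at -0.073. After rescaling to the recovered reads MYL12A was at 0.0054 and MYL9 at 0.022, and with median-of-ratios scaling MYL9 was at 0.0074. Leaving out 1 library at a time gave -0.060 to 0.0074 for MYL12A, -0.056 to 0.041 for MYL9 and -0.022 to 0.042 for MYL12B, the last negative only without pcDNA3.1 replicate 1. MYH11 was at 0.026 without both pcDNA3.1 replicate 1 and ANKRD9 replicate 3. The cause was not tested. Rescaling to the recovered reads and leaving out both of those libraries were chosen after seeing the data. Of the scalings, rescaling to the recovered reads moved the median of all genes most, by 0.0223. It also turned the balance of calls over all genes. With it 2240 genes were higher and 2010 lower, beside 1900 and 2310 as reported.

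With the replicate number as a block, 0 myosin genes were called higher, as the adjusted p of MYH1D was 0.0505 (limma), and 2 were lower. The labels give no pairing. Deviations of same-numbered libraries from their group means correlated at -0.196, 0.0336 and -0.0797, and no library correlated best with its own number. Outside the myosin genes ACTG1 lost its call under the block (adjusted p = 0.117). The fewest reads lay behind the 10 genes under 1 FPKM, with 1 to 125 in a library. The SE of MYLPF, on 57 to 171 reads, was 0.26 as reported and 0.12 without both pcDNA3.1 replicate 1 and ANKRD9 replicate 3. Those libraries held its lowest value in each group, so the smaller SE is no measure of its precision.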
